A study of Mus musculus with 4 samples.

Results

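The 10 regulators described here, which set or hold the state of B cells and antibody-secreting plasma cells, were followed through 2 single-cell expression libraries of MC38 tumours. They are Prdm1, Irf4, Xbp1, Pou2af1, Pax5, Ebf1, Bach2, Bcl6, Spib and Irf8, chosen by name as 10 of the 32285 genes in the matrices. The knockout group, called KO here, was C57BL/6 females carrying floxed Prdm1 alleles together with CD19cre, a cre recombinase expressed in B lineage cells. The control group was C57BL/6 females carrying the same floxed Prdm1 alleles without cre. All animals were 12 to 16 weeks old and bore subcutaneous MC38 tumours, a mouse colon carcinoma line, for 18 days. Tumours of 11 recipients per group were pooled, live cells positive for B220 (a B lineage marker shared with some dendritic and NK cells) or for CD138 (a plasma cell marker) were sorted, the sorted cells were mixed at a ratio the labels do not give, and 1 expression library and 1 B cell receptor library were made per group. Shares of cell types therefore depend on sorting and mixing. The names of the KO and control libraries hold different dates, which leaves a batch of libraries and the genotype confounded, and they cannot be told apart. With 1 library per genotype no difference has a replicate check, there is no test, and every interval below is a 95% interval that covers counting error only.

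A B cell keeps its identity through Pax5 and Ebf1, which switch on genes of the B cell receptor complex, while Bach2 and Bcl6 hold back plasma cell differentiation. Irf4 then raises Prdm1, which encodes the repressor Blimp-1, and Blimp-1 shuts down Pax5, Bcl6, Spib and other B cell genes while Xbp1 builds the secretory apparatus. Several of these factors also work in other lineages: Irf8 in dendritic cells and monocytes, Spib in plasmacytoid dendritic cells, and Prdm1 in T cells, NK cells and myeloid cells.

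All 10 genes are protein-coding, and positions are those of the RefSeq annotation of GRCm38.p6. Among the plasma cell factors, Prdm1 (ENSMUSG00000038151) lies on chromosome 10 at 44437174 to 44528558, Irf4 (ENSMUSG00000021356) on chromosome 13 at 30749233 to 30766981 and Xbp1 (ENSMUSG00000020484) on chromosome 11 at 5520641 to 5525993. Pou2af1 (ENSMUSG00000032053), the coactivator OBF1 of octamer-binding proteins, lies on chromosome 9 at 51213690 to 51240079. Among the B cell factors, Pax5 (ENSMUSG00000014030) lies on chromosome 4 at 44524748 to 44710694, Bach2 (ENSMUSG00000040270) on chromosome 4 at 32238413 to 32586109 and Ebf1 (ENSMUSG00000057098) on chromosome 11 at 44618100 to 45008096. Bcl6 (ENSMUSG00000022508) lies on chromosome 16 at 23965050 to 23988866, Spib (ENSMUSG00000008193) on chromosome 7 at 44525995 to 44532087 and Irf8 (ENSMUSG00000041515) on chromosome 8 at 120736358 to 120756694.

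RefSeq promoter windows were found for all 10 genes, 13 windows in all, and the 250 bases before each start were read on both strands for 7 motifs. TGACGTGG, the unfolded protein response element that Xbp1 binds, is in 1 member window, that of Pou2af1, and in 0.563% of all 32851 windows. TTCNNNGAA, the pattern of STAT proteins, is in 4 member windows (Irf8, Bach2 and both of Bcl6) and in 7.02% of all. GGAA, any 2 bases and GAAA, the joint pattern of ETS and IRF proteins, is in a window of Bach2 and one of Bcl6 (2.30% of all), and GAAA, any 2 bases and GAAA, an interferon-stimulated response pattern that can overlap the preceding one, is in that of Ebf1 (2.98% of all). The octamer ATTTGCAT (1.60% of all), a Blimp-1 pattern that is the interferon-stimulated one with GT as its inner bases (0.207%), and TGCTGA followed by GTCA, a Maf recognition element of the kind Bach2 binds (0.134%), are in no member window. A match is a description of letters, not a site. The windows of Pou2af1 and Irf8 are shown because Pou2af1 was the member least changed between Jchain-high and B-like cells and Irf8 was the member with the widest range between lineages. Capitals mark TGACGTGG in Pou2af1, at bases -61 to -54 from the start (chr9:51213440-51213689, plus strand), and both TTCNNNGAA matches in Irf8, at -171 to -163 and -153 to -145 (chr8:120736108-120736357, plus strand), all on GRCm38.p6.
Pou2af1: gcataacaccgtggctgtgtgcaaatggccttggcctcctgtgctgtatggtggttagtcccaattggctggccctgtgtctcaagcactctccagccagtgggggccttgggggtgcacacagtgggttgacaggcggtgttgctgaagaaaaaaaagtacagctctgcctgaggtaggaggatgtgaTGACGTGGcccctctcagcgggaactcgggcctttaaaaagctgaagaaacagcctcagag
Irf8: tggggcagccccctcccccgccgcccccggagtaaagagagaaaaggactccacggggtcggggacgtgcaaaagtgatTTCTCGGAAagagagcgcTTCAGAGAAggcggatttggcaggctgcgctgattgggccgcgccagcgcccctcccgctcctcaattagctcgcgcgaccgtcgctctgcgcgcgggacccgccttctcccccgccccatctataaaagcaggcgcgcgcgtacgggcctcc

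The KO library held 897 barcodes and 5463434 UMIs (unique molecular identifiers, each 1 counted transcript) and the control library 816 barcodes and 6976374 UMIs, of which 863 KO and 804 control cells were kept, with medians of 4022 and 5946.5 UMIs per cell. Of all barcodes, 3 occur in both libraries, 2 of them among kept cells. Cells were clustered without the 10 members and without immunoglobulin genes, so that no member placed a cell in its class, and 14 of the 17 clusters took a name from marker lists. The B-like class held 271 KO and 229 control cells in 2 clusters, the Fcer2a-led cluster with 106 KO and 179 control cells and the Fcrl5-led cluster with 165 KO and 50 control cells. Fcer2a encodes the low-affinity IgE receptor CD23 of follicular B cells, and Fcrl5 an Fc receptor-like protein. The top gene of the Fcrl5-led cluster is AC133103.1, a symbol with no described role here, and Fcrl5 is the next. All 11 B cell markers were detected in B-like cells of both libraries, at a summed level of 12492 CPM in KO and 13092 CPM in control, where CPM is UMIs per 1000000 UMIs of the class. Barcodes with at least 100 UMIs of Jchain, the joining chain of IgA and IgM, formed the Jchain-high class, which held 0 KO and 47 control cells. In it all 9 plasma cell markers were detected, and 41 of the 47 carried an IGHA heavy chain. The sort also held NK-like (245 KO, 152 control), plasmacytoid dendritic-like (38 and 38), T-like (42 and 36), gamma delta T17-like (36 and 34), macrophage- or monocyte-like (45 and 96), neutrophil-like (17 and 73), mast cell- or basophil-like (45 and 34) and cycling cells (37 and 26).

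**Figure D1:**
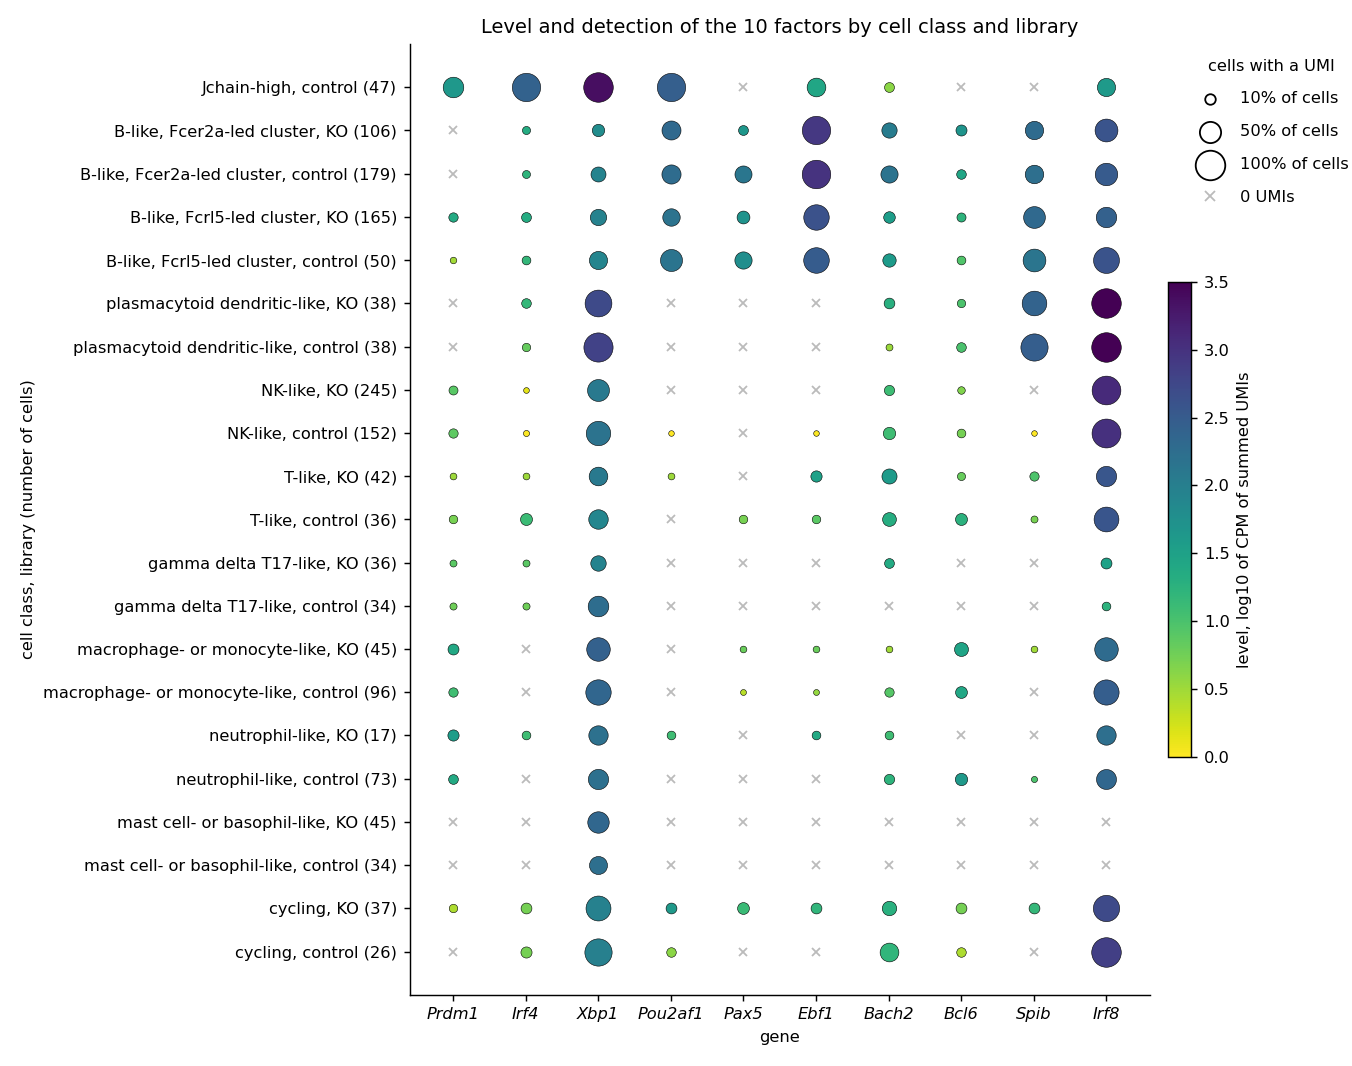
Level (colour, log10 of CPM) and share of cells with a UMI (dot area) of the 10 factors in each named class of 15 or more cells, KO row above control row, with crosses where no UMI was counted. Xbp1 is present in every row, Irf4 and Xbp1 stand out in Jchain-high cells, Pax5 and Ebf1 in B-like cells, and Irf8 in plasmacytoid dendritic-like and NK-like cells.

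The targeted gene Prdm1 gave 53 UMIs in the kept KO cells and 86 UMIs in the kept control cells. Of these, 15 UMIs lay in KO B-like cells and 1 UMI in control B-like cells, and 43 of the control UMIs lay in the 47 Jchain-high cells. The labels do not say which exons are floxed, and a 5' read can lie outside a deleted exon. Prdm1 counts in B-like cells therefore check neither the deletion nor the label.

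The first comparison set Jchain-high cells against B-like cells within the control library, where genotype and library do not enter. It asked how far the factors of the B cell and plasma cell programmes separate these cells. Prdm1, Irf4 and Xbp1 were higher in Jchain-high cells, and Pax5, Ebf1, Bach2, Bcl6, Spib and Irf8 were lower. Pou2af1 was higher by less than 2-fold. Past 2-fold, 9 of the 10 members differed, 3 higher and 6 lower, where 60.5% of the 8141 genes tested in these cells were past 2-fold, 8.27% higher and 52.3% lower. The background is high because the median log2 ratio of all tested genes was -1.06, and the median of the 10 members was -2.96. Immunoglobulin genes took 43.3% of UMIs in Jchain-high cells and 2.24% in control B-like cells. With immunoglobulin, mitochondrial and ribosomal protein genes left out of the totals, the median log2 ratio of all genes was -0.48 and the same 9 members were past 2-fold in the same directions. Pou2af1 passed it too on that scale, which made the count 10. T cell markers summed to 208 CPM in Jchain-high cells (7 of 9 detected, Cd8a and Cd8b1 at 0) and 5.77 CPM in control B-like cells (3 of 9), and NK cell markers to 86.2 CPM in Jchain-high cells (3 of 10, Ncr1 and Eomes among those at 0) and 2.31 CPM in control B-like cells (1 of 10). Their part in the member levels was not tested.

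Xbp1, the transcription factor of the secretory and unfolded protein response programme, reached 2377 CPM (2282 to 2475) in Jchain-high cells and 83.1 CPM (65.0 to 105) in control B-like cells. This is the highest level of any member outside Irf8, and a ratio of 28.6 (22.6 to 36.7). Every Jchain-high cell held Xbp1 UMIs, between 8 and 153 with a median of 36. Irf4, the factor that starts the plasma cell switch and is kept in plasma cells, was at 258 CPM (227 to 291) in Jchain-high cells and 16.2 CPM (8.83 to 27.1) in control B-like cells, a ratio of 16.0 (9.34 to 29.6). It was found in 43 of 47 Jchain-high cells, and 1 cell held 36 of the 257 UMIs. Prdm1 was at 43.1 CPM (31.2 to 58.1) in Jchain-high cells and 1.15 CPM (0.0292 to 6.43) in control B-like cells, a ratio of 37.4 (6.36 to 1510). The upper bound is wide because the B-like side rests on 1 UMI. Prdm1 was the scarcest of the 3, with at most 6 UMIs in a cell, and was found in 22 of 47 cells. Of those 22, 21 also held Irf4 UMIs and 21 held Pou2af1 UMIs.

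The B cell identity factors went the other way. Pax5 gave 0 UMIs in the 47 Jchain-high cells and 93 UMIs (107 CPM) in control B-like cells, and was at least 35.7-fold lower against a floor of 3 UMIs over the class. A count of 0 in 47 cells allows a share of up to 6.38% of cells with a UMI at the floor of 3 counts, and up to 7.55% by the exact binomial interval. Spib, an ETS factor of B cells and plasmacytoid dendritic cells, gave 0 UMIs in Jchain-high cells and 139 UMIs in control B-like cells (at least 53.3-fold lower). Bcl6, the repressor of the germinal centre programme, gave 0 UMIs in Jchain-high cells and 18 UMIs in control B-like cells (at least 6.90-fold lower). These 3 genes were the members with no UMI in any Jchain-high cell. Their ratio intervals ran from 0 to 0.0352 for Pax5, 0.0234 for Spib and 0.198 for Bcl6. Those of Pax5 and Bcl6 overlap the interval of Ebf1 (0.0244 to 0.0547), and that of Spib lies below it. All 3 overlap the interval of Bach2. Whether known targets of Blimp-1 repression fell further than the other members was not tested. Bach2, a repressor of Prdm1, was at 4.01 CPM in Jchain-high cells and 107 CPM in control B-like cells, a ratio of 0.0374 (0.00998 to 0.0990).

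Ebf1 did not fall to 0. It gave 27 UMIs (27.1 CPM) in Jchain-high cells and 630 UMIs (727 CPM) in control B-like cells, a ratio of 0.0373 (0.0244 to 0.0547), and 18 of 47 Jchain-high cells held a UMI. Ebf1 was found in 38.3% of Jchain-high cells (24.5 to 53.6%), against 0.658% of control NK-like cells, which should lack it, at median depths of 20862 UMIs in Jchain-high cells and 8647 UMIs in NK-like cells. Other classes came closer in level: Ebf1 was at 32.1 CPM (15.4 to 59.1) in KO T-like cells, with a UMI in 11.9% of cells (3.98 to 25.6%), at 7.82 CPM in control T-like cells and at 24.5 CPM (6.69 to 62.8) in the control unnamed cluster led by Ace and Ear2, where 1 cell held all 4 UMIs. The interval of Jchain-high cells in CPM (17.8 to 39.4) overlaps all 3. Irf8 likewise was at 40.1 CPM in Jchain-high cells and 351 CPM in control B-like cells, a ratio of 0.114 (0.0801 to 0.159), with a UMI in 17 of 47 Jchain-high cells. Of the 18 cells with Ebf1 and the 17 with Irf8, 6 held both.

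Pou2af1, whose promoter window is shown above, was the 1 member within 2-fold. It was at 289 CPM (256 to 324) in Jchain-high cells and 172 CPM (145 to 202) in control B-like cells, a ratio of 1.68 (1.37 to 2.06), and 2.51 with immunoglobulin, mitochondrial and ribosomal protein genes out of the totals. Jchain-high cells were deeper, at a median of 20862 UMIs, than control B-like cells at 3055 UMIs. After each cell was thinned to 1500 UMIs, 29.8% of Jchain-high cells (17.3 to 44.9%) and 22.7% of control B-like cells (17.4 to 28.7%) held a Pou2af1 UMI, and these intervals overlap. Unthinned the shares were 91.5% of Jchain-high cells and 43.2% of control B-like cells. At the same thinned depth Xbp1 was found in 91.5% of Jchain-high cells (79.6 to 97.6%) and 14.2% of control B-like cells (9.94 to 19.5%), and Irf4 in 36.2% of Jchain-high cells (22.7 to 51.5%) and 2.67% of control B-like cells (0.985 to 5.71%), so that these intervals stayed apart. Thinned Prdm1 was found in 6.38% of Jchain-high cells (1.34 to 17.5%) and 0 of 225 control B-like cells (0 to 1.63%), which overlap at this depth.

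**Figure D2:**
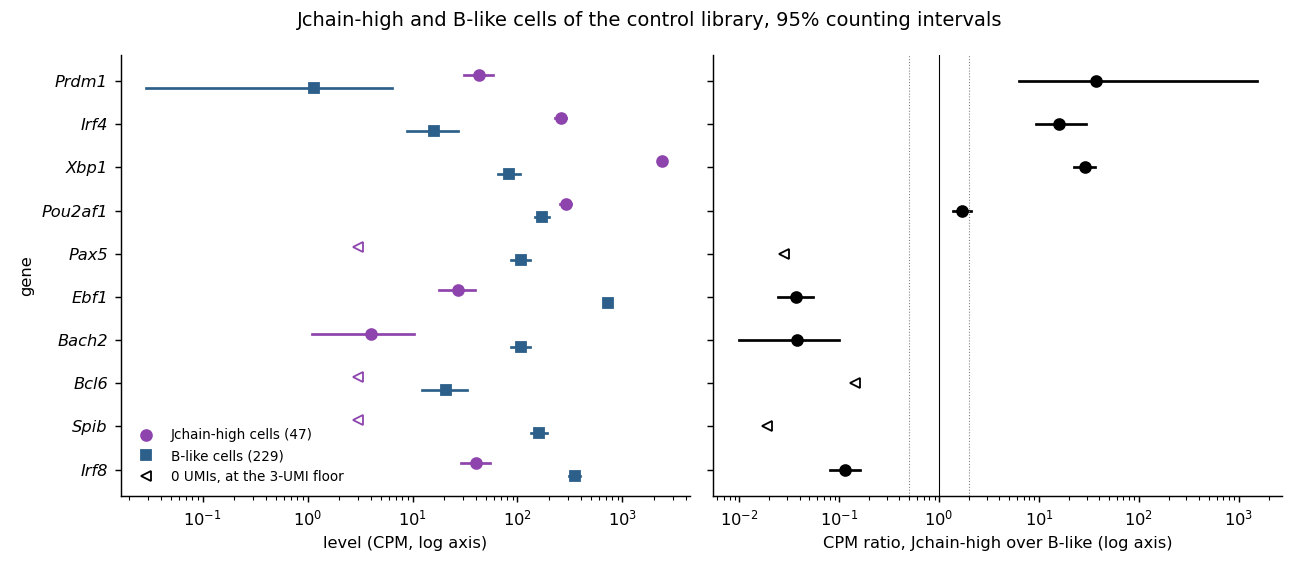
Left, level in CPM of each factor in Jchain-high cells (circles) and B-like cells (squares) of the control library. Right, their CPM ratio, with 2-fold marked by dotted lines and open triangles for members with 0 UMIs in Jchain-high cells, set at 3 UMIs. Xbp1, Prdm1 and Irf4 lie to the right of 2-fold, Pou2af1 lies at 1.68, and the other 6 lie to the left.

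Other genes of the programme, taken from fixed lists, were counted in the same comparison and are to be read against the 52.3% of all tested genes past 2-fold lower and the 8.27% past 2-fold higher. Of 24 genes known as activated by Blimp-1 or Xbp1 for secretion, 23 were past 2-fold higher in Jchain-high cells, with a list median log2 ratio of 3.18 against -1.06 over all tested genes. Mzb1, a chaperone of immunoglobulin assembly, was at 4860.0 CPM in Jchain-high cells and 607 CPM in control B-like cells, and Sec11c, of the signal peptidase, at 2024 CPM in Jchain-high cells and 292 CPM in control B-like cells. Jchain belongs to this list and also chose the cells. Of 13 tested genes known as activated by Pax5 or Ebf1, all 13 were past 2-fold lower (median -2.48), among them Cd79a at 802 CPM in Jchain-high cells and 4462 CPM in control B-like cells. Of 14 tested genes known as repressed by Blimp-1, 13 were past 2-fold lower (median -5.03), among them Ms4a1, which encodes CD20, at 9.03 CPM in Jchain-high cells and 999 CPM in control B-like cells. Among 23 tested other regulators of B cell state, 20 were past 2-fold lower and 0 higher, with Foxp1 at 24.1 CPM in Jchain-high cells and 430.3 CPM in control B-like cells and Pou2f2, the octamer-binding partner of Pou2af1, at 27.1 CPM in Jchain-high cells and 288 CPM in control B-like cells. Pou2f2 is also 1 of the 11 tested relatives of the members, of which 9 were past 2-fold lower. Of 10 tested regulators of other lineages, 6 were past 2-fold lower, a share near that of all tested genes, and 1, Runx2, was higher, at 18.1 CPM in Jchain-high cells and 3.46 CPM in control B-like cells.

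The second comparison set KO against control B-like cells. Prdm1 was higher and Pax5 lower past 2-fold in KO B-like cells, and the other 8 members stayed within 2-fold. These are 2 of 10 members, where 10.1% of the 8514 genes tested were past 2-fold, 4.92% higher and 5.14% lower. The median log2 ratio was -0.04 over the members and -0.06 over all tested genes. KO B-like cells had a median of 2693 UMIs and control B-like cells 3055 UMIs.

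Prdm1 was at 16.6 CPM (9.32 to 27.5) in KO B-like cells and 1.15 CPM (0.0292 to 6.43) in control B-like cells, a ratio of 14.4 (2.22 to 607). Its 15 UMIs lay in 12 KO cells, all in the Fcrl5-led cluster, and the 1 control UMI lay in that cluster too. Without the KO cell with the most Prdm1 UMIs and the control cell that held the 1 UMI, the KO level was at least 3.78-fold higher against the floor. As a mean over cells, with every cell weighted the same, the ratio was 130, since the control UMI lay in a cell of 38371 UMIs. Each of the 12 KO cells held 9 to 42 UMIs of Cd79a, a chain of the B cell receptor, and 1 or more of Ms4a1 and Mzb1. They held no UMI of Sdc1, which encodes CD138, or of Derl3, and 9 carried IGHM, 1 IGHA and 1 IGHG2B. Bach2 was at 0 UMIs in all 13 B-like cells with a Prdm1 UMI, while Ebf1 was found in 10 of the 13. Bach2 was the scarcer gene there, with 23 UMIs against 266 UMIs of Ebf1 over the 165 KO cells of the Fcrl5-led cluster. Whether Bach2 and Prdm1 exclude each other was not tested. Beside the Prdm1 result, 8 of 10 NK cell markers were detected in KO B-like cells at a summed 63.3 CPM, with Klrb1c and Klrb1b at 0. In control B-like cells 1 of 10 was, at 2.31 CPM. The NK-like level of Prdm1 itself was 8.22 CPM in KO and 7.44 CPM in control. T cell markers summed to 31.1 CPM in KO B-like cells (7 of 9 detected, Cd8a and Cd28 at 0) and 5.77 CPM in control (3 of 9, Cd3e and Cd3g among those at 0). Erythroid markers summed to 320 CPM in KO B-like cells (5 of 6 detected) and 1.15 CPM in control (1 of 6, Hba-a1, Hba-a2 and Hbb-bs among those at 0). The part of these other cell types in the Prdm1 counts was not tested.

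Pax5 was at 48.8 CPM (35.5 to 65.6) in KO B-like cells and 107 CPM (86.6 to 131) in control B-like cells, a ratio of 0.455 (0.310 to 0.658). It was found in 13.3% of KO cells (9.48 to 17.9%) and 31.4% of control cells (25.5 to 37.9%). After thinning to 1500 UMIs the shares were 8.05% of KO cells (5.05 to 12.0%) and 17.3% of control cells (12.6 to 22.9%), which do not overlap. Pax5 was the 1 member whose thinned shares stood apart, where the unthinned shares of Pax5 and Bach2 did. The ratio was 0.501 with no barcode filter and 0.540 with doublets kept, and so just short of 2-fold in both. Removal was uneven: Pax5 had 72 UMIs in all KO barcodes and 61 UMIs in kept KO cells, against 101 UMIs in both sets of control. Barcodes removed for 2 heavy chains were 6 in KO and 0 in control. The median reads per heavy-chain contig were 3922 in KO and 130 in control. The part of this uneven filter in the Pax5 ratio was not tested.

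The remaining members moved less. Bach2 was at 58.8 CPM in KO and 107 CPM in control B-like cells, a ratio of 0.548 (0.384 to 0.776), and Ebf1 at 554 CPM in KO and 727 CPM in control, a ratio of 0.762 (0.676 to 0.858). Spib was at 203 CPM in KO and 160.4 CPM in control, a ratio of 1.27 (1.01 to 1.59). The intervals of these 3 exclude 1, but the intervals hold no spread between animals or libraries. Intervals of the other 5 include 1. Xbp1 was nearly level, at 82.1 CPM in KO and 83.1 CPM in control (0.989, 0.705 to 1.39), as was Pou2af1, at 164 CPM in KO and 172 CPM in control (0.956, 0.756 to 1.21). Irf8 was at 304 CPM in KO and 351 CPM in control (0.867, 0.734 to 1.02), Irf4 at 22.2 CPM in KO and 16.2 CPM in control (1.37, 0.660 to 2.94) and Bcl6 at 26.6 CPM in KO and 20.8 CPM in control (1.28, 0.667 to 2.51). Irf4 and Bcl6 each rest on under 50 UMIs over both libraries.

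On the fixed lists, 1 of 13 tested genes activated by Pax5 or Ebf1 was past 2-fold in KO B-like cells. This was Fcer2a, at 134 CPM in KO and 359 CPM in control, with a list median log2 ratio of -0.24. Fcer2a also leads the cluster that held 106 KO and 179 control cells. Inside that cluster 0 of 13 tested genes of this list were past 2-fold (median -0.04). Inside the Fcrl5-led cluster 8 of 13 were above 1 in KO and 5 below (median 0.26). Past 2-fold, 1 was higher, Cr2 (2.93, 0.849 to 15.6). The 2 past 2-fold lower were Cd72 (0.285, 0.192 to 0.416) and Fcer2a (0.438, 0.178 to 1.06). Of all genes tested in that cluster, 8.52% were past 2-fold higher and 6.16% lower. Over all B-like cells none of the 14 genes repressed by Blimp-1 was past 2-fold in either direction (median -0.07). In the Fcer2a-led cluster 5 were above 1 in KO and 9 below, none past 2-fold (median -0.06). In the Fcrl5-led cluster 11 were above 1 and 3 below (median 0.20). There Cxcr5 alone was past 2-fold (2.27, 1.35 to 4.03), where 8.52% of all tested genes were past 2-fold higher. Of 19 secretion genes tested over all B-like cells, 17 were above 1 in KO and 2 below. Only Jchain was past 2-fold, at 122 CPM in KO and 6.92 CPM in control. The list median was 0.32 against -0.06 over all tested genes. In the Fcer2a-led cluster 14 of 17 tested secretion genes were above 1 in KO and 3 below, with Dnajb9 alone past 2-fold (list median 0.10). In the Fcrl5-led cluster 10 of 18 were above 1 and 8 below (list median 0.20). There Jchain and Fkbp11 were past 2-fold higher and Edem1 lower (0.388, 0.185 to 0.798). Of the 110 KO UMIs of Jchain, 80 lay in 1 cell of the Fcrl5-led cluster. Without the top Jchain cell of each library, an alternative chosen after seeing the data, Jchain was at 34.0 CPM in KO and 4.67 CPM in control, a ratio of 7.28 (2.57 to 28.5) against 17.6 (7.85 to 49.1) with all cells. Of 24 tested other regulators, Zbtb32 was at 94.3 CPM in KO and 38.1 CPM in control (2.48, 1.64 to 3.83), and Mef2b rested on 11 UMIs in KO and 2 UMIs in control. No relative of the members and no regulator of other lineages was past 2-fold over all B-like cells.

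The 2 B-like clusters differ in size between the libraries, so each was taken alone. In the Fcer2a-led cluster Pax5 was the 1 member past 2-fold of 9 tested, where 13.7% of all tested genes were, 5.94% higher and 7.79% lower. It was at 44.5 CPM (23.0 to 77.7) in KO cells and 135 CPM (106 to 170) in control cells, a ratio of 0.329 (0.163 to 0.610), from 12 UMIs in KO and 73 UMIs in control. Beside it, erythroid markers summed to 1064 CPM in KO cells of this cluster (5 of 6 detected) and 1.85 CPM in control cells (1 of 6), and NK cell markers to 18.5 CPM in KO (2 of 10) and 1.85 CPM in control (1 of 10). T cell markers summed to 14.8 CPM in KO (4 of 9) and were at 0 in control. Their part in the Pax5 levels was not tested. Bach2 was at 111 CPM in KO and 148 CPM in control (0.751, 0.476 to 1.16), and Ebf1 at 864 CPM in KO and 979.7 CPM in control (0.882, 0.753 to 1.03). Prdm1 was at 0 UMIs in the 106 KO and the 179 control cells.

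In the Fcrl5-led cluster Prdm1 was the 1 member past 2-fold of 10 tested, where 14.7% of all tested genes were, 8.52% higher and 6.16% lower. It was at 23.8 CPM in KO cells and 3.06 CPM in control cells, a ratio of 7.77 (1.19 to 327), and at least 1.90-fold higher in KO without the top cell of each library. As a mean over cells it was 46.7. Pax5 was at 50.7 CPM in KO and 61.2 CPM in control (0.828, 0.459 to 1.53), so the lower Pax5 of KO B-like cells was not seen past 2-fold here. The difference between the 2 clusters was not tested. Ebf1 was at 421 CPM in KO and 309 CPM in control (1.36, 1.08 to 1.73), and Spib at 206 CPM in KO and 138 CPM in control (1.50, 1.06 to 2.15). Irf8 was lower, at 266 CPM in KO and 404 CPM in control (0.659, 0.521 to 0.834). KO cells of this cluster were shallower, with a median of 2974 UMIs against 5373 UMIs in control, and NK cell markers summed to 82.4 CPM in KO (8 of 10 detected) and 3.06 CPM in control (1 of 10). Erythroid markers were at 1.58 CPM in KO (1 of 6) and at 0 in control. The part of depth and of these markers was not tested.

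**Figure D3:**
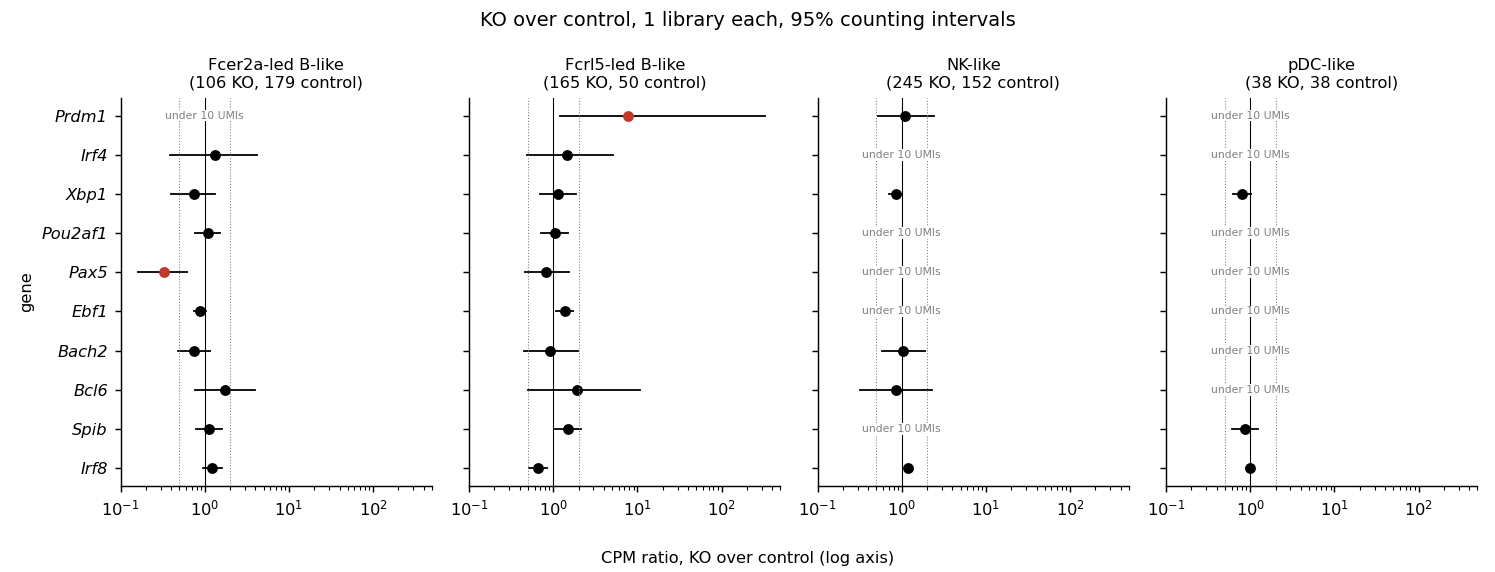
CPM ratio of KO over control for each factor in 4 classes, with 95% counting intervals, 2-fold as dotted lines and red points for members past 2-fold. Pax5 is past 2-fold in the Fcer2a-led cluster (0.329), Prdm1 in the Fcrl5-led cluster (7.77), and no member in the NK-like or plasmacytoid dendritic-like cells.

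Between the 2 clusters, Bach2, Ebf1 and Bcl6 were lower in the Fcrl5-led cluster in both libraries. In the KO library Bach2 was at 36.4 CPM in the Fcrl5-led cluster and 111 CPM in the Fcer2a-led cluster (0.327, 0.182 to 0.583), Ebf1 at 421 CPM in the Fcrl5-led and 864 CPM in the Fcer2a-led cluster (0.487), and Bcl6 at 17.4 CPM in the Fcrl5-led and 48.2 CPM in the Fcer2a-led cluster (0.361, 0.147 to 0.874). Prdm1, with 15 UMIs in the Fcrl5-led cluster and 0 in the Fcer2a-led cluster, was at least 2.14-fold higher. These are 4 of 10 members past 2-fold, against 18.9% of all tested genes, 11.2% higher and 7.69% lower. In the control library Bach2 (0.268), Ebf1 (0.315), Bcl6 (0.330) and Pax5 (0.453) were past 2-fold lower in the Fcrl5-led cluster, 4 of 9 members against 21.7% of all tested genes, 9.54% higher and 12.2% lower. Bcl6 in control rested on 3 UMIs in the Fcrl5-led and 15 UMIs in the Fcer2a-led cluster, and its interval (0.0613 to 1.17) includes 1. Pax5 was at 61.2 CPM in the Fcrl5-led and 135 CPM in the Fcer2a-led cluster of control, but at 50.7 CPM in the Fcrl5-led and 44.5 CPM in the Fcer2a-led cluster of KO. Spib, Pou2af1, Irf4 and Xbp1 stayed within 2-fold between the clusters in both libraries.

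Heavy-chain isotype gave a grouping that used no expression count. A heavy-chain contig was found for 95.6% of KO and 36.7% of control B-like cells, and the control library had 3 switched B-like cells, so the contrast was made in the KO library alone. The 4 members past 2-fold were lower in the 24 switched than in the 235 unswitched cells, against 26.1% of all tested genes past 2-fold, 7.56% higher and 18.5% lower. Bach2 was at 15.3 CPM in switched and 71.2 CPM in unswitched cells (0.215, 0.0428 to 0.666), Ebf1 at 214 CPM in switched and 653 CPM in unswitched cells (0.328, 0.233 to 0.450), and Spib at 102 CPM in switched and 233 CPM in unswitched cells (0.438, 0.260 to 0.699). Bcl6 had 0 UMIs in switched and 22 UMIs in unswitched cells (at least 2.14-fold lower). Prdm1, at 20.4 CPM in switched and 14.8 CPM in unswitched cells, and Irf4, at 25.5 CPM in switched and 19.3 CPM in unswitched cells, were within 2-fold. Switched cells were deeper, with a median of 6707.5 UMIs against 2643 UMIs in unswitched cells. Of the 24 switched cells, 23 were in the Fcrl5-led cluster, and within it Bach2 (0.325), Ebf1 (0.393) and Spib (0.413) were past 2-fold lower, 3 of 10 members against 25% of all tested genes, 7.58% higher and 17.4% lower.

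No KO barcode reached 100 Jchain UMIs, and the highest KO cell had 80 UMIs, where the lowest Jchain-high control cell had 291 UMIs. The 3 KO cells with at least 20 Jchain UMIs were singled out after their values were seen. They carried 48, 66 and 80 Jchain UMIs, IGHA heavy chains and 16959 to 23803 UMIs in all, a depth within that of Jchain-high cells (7325 to 39602 UMIs). Of these, 2 lay in the cycling cluster and 1 in the Fcrl5-led cluster. All 3 had 0 UMIs of Prdm1 and Sdc1. They had 3, 0 and 2 UMIs of Xbp1, where Jchain-high cells had 8 to 153 UMIs, and 1, 0 and 0 UMIs of Irf4. The pair in the cycling cluster held Pax5 (2 and 3 UMIs), Bach2 (3 and 4 UMIs) and Ebf1 (4 and 6 UMIs), and the cell in the Fcrl5-led cluster held none of these 3. Pou2af1 (6, 9 and 7 UMIs), Irf8 (14, 12 and 7 UMIs) and Ms4a1 (8, 12 and 17 UMIs) were found in all 3 cells. Their Xbp1 counts lay below the lowest Jchain-high cell, while their Irf4 and Prdm1 counts lay within the Jchain-high ranges of 0 to 36 UMIs of Irf4 and 0 to 6 UMIs of Prdm1.

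**Figure D4:**
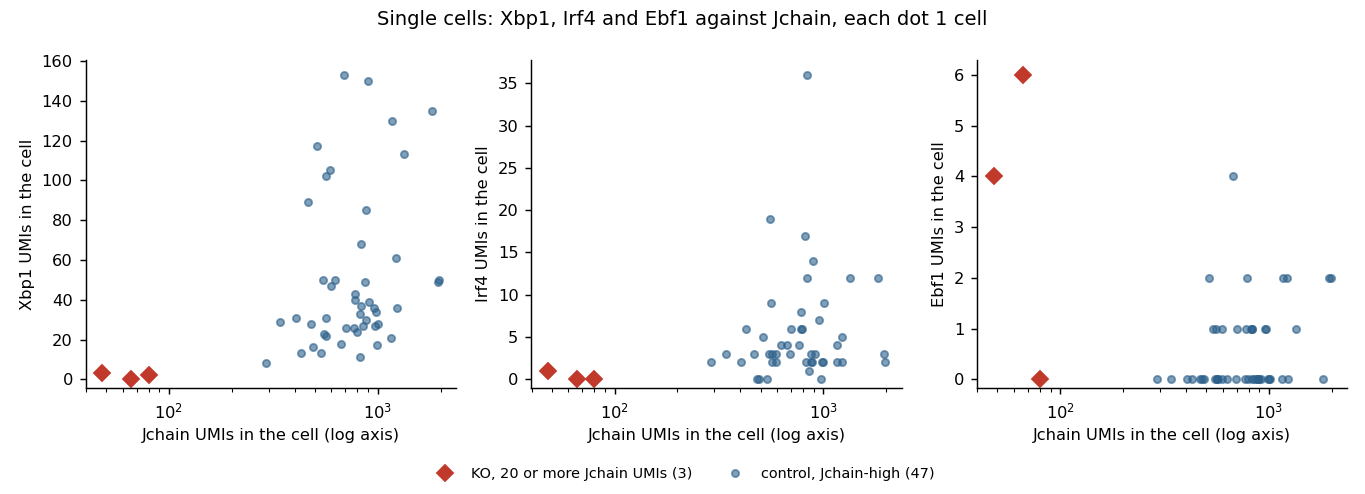
UMIs of Xbp1, Irf4 and Ebf1 against UMIs of Jchain (log axis), 1 dot per cell, for the 3 KO cells with at least 20 Jchain UMIs (diamonds) and the 47 control Jchain-high cells (circles). The KO cells lie at 48 to 80 Jchain UMIs and at most 3 Xbp1 UMIs, where the lowest control cell has 8.

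Among cycling cells, 6 KO and 0 control cells had a heavy-chain contig, including the pair above. Contigs were found for 95.6% of KO and 36.7% of control B-like cells, so the 6 and 0 cells cannot be compared directly. The 6 KO cells gave 71.5 CPM of Pax5, 85.8 CPM of Ebf1, 222 CPM of Pou2af1, 78.6 CPM of Spib and 157 CPM of Xbp1, and 2 of them held a Prdm1 UMI. The other 31 KO cycling cells gave 0 UMIs of Pax5, Ebf1, Spib, Pou2af1 and Prdm1. The 26 control cycling cells gave 0 UMIs of Pax5, Ebf1, Spib and Prdm1 and 3 UMIs of Pou2af1.

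Outside the B lineage Prdm1 rested on few UMIs wherever it was found. In control its order was Jchain-high (43.1 CPM), neutrophil-like (24.6 CPM), the unnamed cluster led by Ace and Ear2 (24.5 CPM), macrophage- or monocyte-like (12.0 CPM), NK-like (7.44 CPM), gamma delta T17-like (5.92 CPM), T-like (5.21 CPM) and B-like (1.15 CPM). Each neighbour in that order overlapped the next within its interval. In KO the macrophage- or monocyte-like cells stood highest among classes of 20 or more cells at 25.5 CPM (11.0 to 50.2), and NK-like cells were at 8.22 CPM (4.87 to 13.0). Prdm1 was at 0 UMIs in plasmacytoid dendritic-like and mast cell- or basophil-like cells of both libraries. Counts were few, with 10 UMIs in control neutrophil-like cells and 3 in KO, so that no non-B class other than NK-like passed 10 UMIs in both libraries.

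Irf8 had the widest range of the members. Plasmacytoid dendritic-like cells were highest, at 3104 CPM (2865 to 3358) in KO and 3148 CPM (2949 to 3357) in control, and every one of the 76 cells held a UMI. The 7 conventional dendritic-like cells were at 1685 CPM in KO and 2091 CPM in control. NK-like cells came next, at 1216 CPM (1170 to 1263) in KO and 1030.1 CPM (985 to 1077) in control, overlapping the unnamed cluster led by Tnfsf10 and Sema6d in KO (1062 CPM, 52 KO and 4 control cells) and above cycling cells (511 CPM in KO, 714 CPM in control). T-like cells, at 366 CPM in KO and 375 CPM in control, overlapped B-like cells in both libraries. Macrophage- or monocyte-like cells were at 198 CPM in KO and 298 CPM in control. Gamma delta T17-like cells were low, at 31.7 CPM in KO and 17.8 CPM in control. The 45 KO and 34 control mast cell- or basophil-like cells gave 0 Irf8 UMIs, which allows up to 28.2 CPM in KO and 33.0 CPM in control at the upper interval bound. In those cells Xbp1 was the 1 member with any UMI, at 222 CPM in KO and 170 CPM in control.

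Among named classes of 20 or more cells, Spib passed 20 CPM in plasmacytoid dendritic-like and B-like cells alone. Plasmacytoid dendritic-like cells were at 254 CPM (189 to 334) in KO and 291 CPM (233 to 360) in control, beside B-like cells at 203 CPM in KO and 160.4 CPM in control. The intervals of the 2 classes overlapped in KO and not in control. In NK-like cells Spib gave 0 UMIs in 245 KO cells and 1 UMI in 152 control cells. The unnamed cluster led by Pkib and Ifit3, with 16 KO and 10 control cells, held Spib at 95.1 CPM in KO and 121 CPM in control, with Ebf1 at 257 CPM in KO and 362 CPM in control and Pou2af1 at 228 CPM in KO and 241 CPM in control. All 11 B cell markers were detected in its KO cells and 10 of 11 in its control cells.

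Against B-like cells, plasmacytoid dendritic-like cells had more Xbp1 and Irf8. Xbp1 was at 517 CPM (423 to 627) in KO plasmacytoid dendritic-like cells and 82.1 CPM in KO B-like cells, a ratio of 6.30 (4.63 to 8.61), and in control at 644 CPM in plasmacytoid dendritic-like and 83.1 CPM in B-like cells, a ratio of 7.75 (5.88 to 10.3). Among classes of 20 or more cells this was the highest Xbp1 in KO, and in control the highest after Jchain-high cells. Irf8 was 10.2 times the B-like level in KO and 8.98 times in control. In KO 7 of 10 members were past 2-fold, 2 higher and 5 lower, where 35.8% of all tested genes were (20.4% higher, 15.4% lower), and in control 8 of 9, 2 higher and 6 lower, where 34.6% were (18.5% higher, 16.1% lower). Pax5, Ebf1 and Pou2af1 had 0 UMIs in these cells in both libraries, and Spib stayed within 2-fold.

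**Figure D5:**
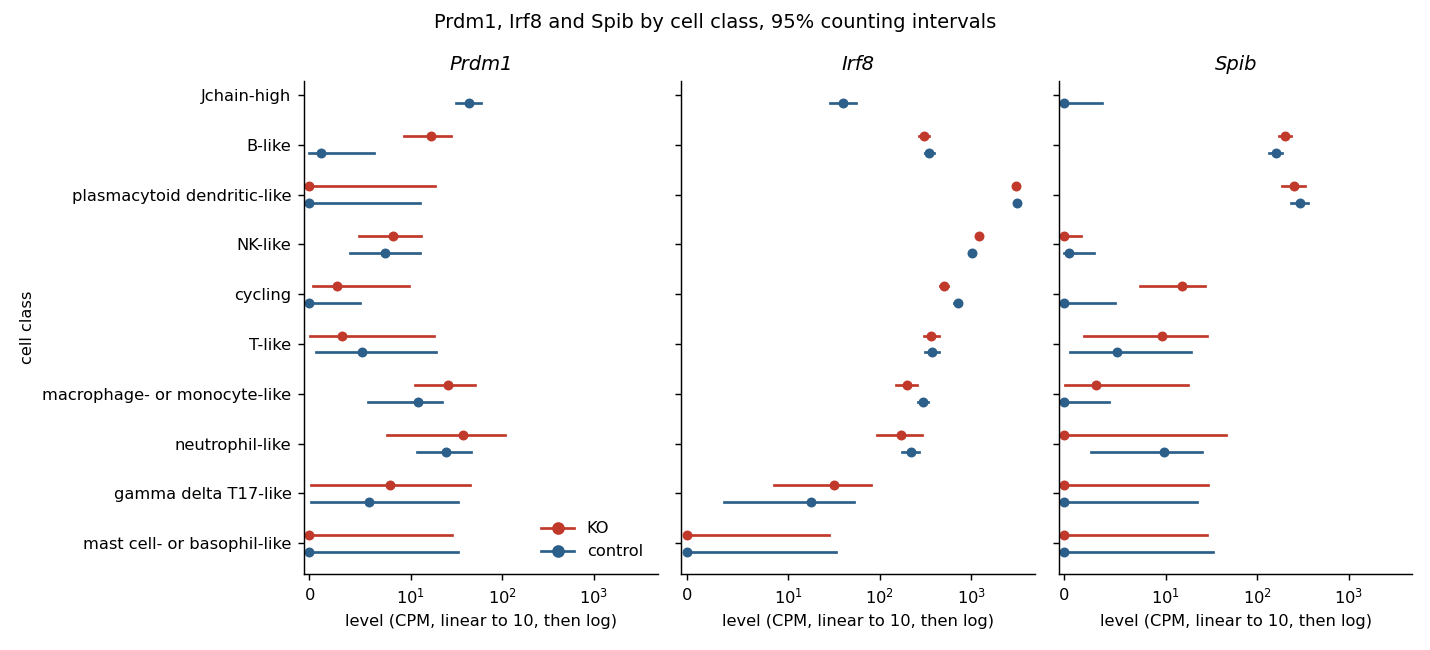
Levels of Prdm1, Irf8 and Spib (CPM, linear to 10 and log above) by class with 95% counting intervals, KO in red above control in blue. Irf8 runs from 0 UMIs in mast cell- or basophil-like cells to 3104 CPM in KO and 3148 CPM in control plasmacytoid dendritic-like cells, Spib is high in B-like and plasmacytoid dendritic-like cells, and Prdm1 is at 43.1 CPM in Jchain-high cells, with an interval that overlaps those of neutrophil-like cells in both libraries.

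NK-like cells lie outside the B lineage, and their members were compared between the libraries too. Of the members 5 reached 10 UMIs there, and 0 of 5 were past 2-fold between KO and control, where 5.54% of all tested genes were, 2.54% higher and 3% lower. Irf8 was at 1216 CPM in KO and 1030.1 CPM in control (1.18, 1.11 to 1.25), with 1379 CPM in KO and 1021 CPM in control in the Ccl5-led cluster and 1129 CPM in KO and 1035 CPM in control in the Gzmg-led cluster. Xbp1 was at 123 CPM in KO and 146 CPM in control (0.844, 0.711 to 1.002). Prdm1 (1.11), Bach2 (1.05) and Bcl6 (0.860) had intervals that include 1. Set against B-like cells of the same library, NK-like cells had 1 member higher (Irf8, at 1216 CPM in NK-like and 304 CPM in B-like cells) and 8 lower past 2-fold in KO, where 30.9% of all tested genes were past 2-fold, 16% higher and 14.9% lower. In control 2 were higher (Irf8, 2.94-fold, and Prdm1 from 14 UMIs against 1) and 7 lower, where 32.4% were, 16% higher and 16.4% lower. Prdm1 was thus on opposite sides in the libraries. Its ratio of NK-like over B-like cells was 0.494 (0.235 to 1.05) in KO and 6.45 (0.981 to 273) in control, and both intervals include 1. B cell markers in NK-like cells summed to 5.48 CPM in KO (4 of 11 detected) and 15.9 CPM in control (7 of 11), with Ms4a1, Cd22 and Fcer2a at 0 in both. In plasmacytoid dendritic-like cells 0 of 3 tested members were past 2-fold between KO and control (13.6% of all tested genes, 6.65% higher and 6.92% lower), with Irf8 at a ratio of 0.986 (0.889 to 1.09). In macrophage- or monocyte-like cells 1 of 4 was (12.7% of all tested genes, 4.97% higher and 7.71% lower), Prdm1, with 8 UMIs in KO and 10 in control (2.12, 0.729 to 5.98). Irf8 there was at 198 CPM in KO and 298 CPM in control (0.664, 0.494 to 0.880).

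For each member the genes with the most similar levels were ranked over 20 profiles of 12 classes, by Pearson's r of log2(CPM + 10) among 8339 genes. The profiles share their libraries and differ in depth, so r is a description only. Ebf1 was closest to Bend5 (0.980), Bank1 (0.974) and Fcrl1 (0.968), and Pax5 to Ms4a1 (0.941), H2-Eb2 (0.941) and Ebf1 itself (0.912), the closest pair within the set. Spib was closest to Bcl11a (0.974), Kynu (0.964) and Fcrla (0.955). Xbp1 was closest to H13 (0.884), Plpp5 (0.833) and Txndc11 (0.785), and Irf8 to Rpf2 (0.877), Msh6 (0.866) and Bcl3 (0.847). Pou2af1 was closest to Ighv1-53 (0.969), Ighv1-9 (0.948) and Ighg2b (0.945), and Irf4 to Ighv8-8 (0.925), Igkv8-21 (0.924) and Ighv8-12 (0.924), all immunoglobulin genes. Bcl6 was closest to Ripk2 (0.860), Sh3bgrl (0.860) and Irf5 (0.851), Bach2 to Cd83 (0.796), Avl9 (0.791) and Thoc1 (0.791), and Prdm1 to AW011738 (0.766), Nus1 (0.746) and Ly96 (0.722). Xbp1 was negatively related to Bach2 (-0.43) and Pax5 (-0.36) over these profiles.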

How the data were processed

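The values used are UMI counts as deposited, 1 matrix of genes by barcodes per library, and Cell Ranger 6.0.0 and GRCm38 are named in the submitters' processing notes. The authors also deposited contig tables with constant-region calls and read counts per contig. The aim was 24000 reads per cell for expression and 6000 reads for receptors. Removed were barcodes that had fewer than 200 genes detected or more than 10% of UMIs from mitochondrial genes (23 KO, 11 control), Scrublet doublets (5 KO, or 0.557%, and 1 control, or 0.123%) and 6 KO barcodes with 2 heavy chains. Cells were clustered in Scanpy 1.11.5 without batch correction (10000 UMIs per cell, 2000 variable genes, 30 components, 15 neighbours, Leiden resolution 1). A cluster took the name of the marker list with the highest mean log2 level over other cells, of at least 1, with at least 3 markers in 10% of cells, 1 or more among its leading 25 genes and no other list with more there. Names rebuilt in this way may differ from the authors' own.

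UMIs were summed per class and library into CPM. Intervals are exact: Poisson for a CPM, conditional binomial for a ratio and Clopper-Pearson for a share (SciPy 1.17.1). Past 2-fold means a ratio of at least 2 or at most 0.5 among genes with at least 10 UMIs over both sides, a count of 0 being set to 3 UMIs over the class, and no ratio is given where both sides have 3 UMIs or fewer. Isotypes came from the heavy-chain contig with the most UMIs. The step for ratios was tested on simulated data. The members, marker lists and gene lists were chosen with earlier results of these data known. Named genes are the members, up to 4 genes per list and direction past 2-fold with the most UMIs, and the 3 closest profiles per member, with fewer printed in places. Alternatives were other totals, cell weights, filters, doublets, clusters, UMI minimums, thinning depths and isotype minimums. Some marker and list genes are not reported here.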

Additional observations from a re-analysis of the deposited data

Results flagged for a closer look

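Irf8 ran in opposite directions between KO and control in some of the classes compared. The CPM ratio of KO over control was 1.18 in NK-like cells (1216 CPM in KO, 1030.1 CPM in control), 0.659 in the Fcrl5-led B-like cluster (266 CPM in KO, 404 CPM in control) and 0.664 in macrophage- or monocyte-like cells (198 CPM in KO, 298 CPM in control), each with an interval that excludes 1. In the Fcer2a-led B-like cluster the ratio was 1.23 (0.960 to 1.58), and in plasmacytoid dendritic-like cells 0.986 (0.889 to 1.09), and both intervals include 1. KO cells of the Fcrl5-led cluster were shallower, with a median of 2974 UMIs against 5373 UMIs in control. With 1 library per genotype the difference between these ratios was not tested.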

How the results depend on the processing

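The 9 of 10 members past 2-fold between Jchain-high and B-like cells and the 1 in the Fcer2a-led cluster stayed within 1.5 times those counts under all alternatives run. The count of 2 in KO against control B-like cells was 1 with no barcode filter and 1 with doublets kept (Prdm1 in both), and 1 at a minimum of 50 UMIs (Pax5). The count of 1 in the Fcrl5-led cluster was 3 as a mean over cells (Prdm1, Irf4 and Bcl6), 2 with no barcode filter (Prdm1 and Bcl6), 0 at a minimum of 50 UMIs and 2 without the top cell of each member (Irf4 and Bcl6). Without thinning, 2 members had shares that stood apart in place of 1. The cause of these moves was not tested, except that a minimum of 50 UMIs leaves 7 members to count in B-like cells and 6 in the Fcrl5-led cluster. No direction was reversed among called values. Pax5 ranged over 0.433 to 0.540 in B-like cells and 0.288 to 0.375 in the Fcer2a-led cluster, and Prdm1 over 3.78 to 130 in B-like cells. The planned gate on 2 or more markers left no class of 20 cells. A gate chosen after seeing the data, on 3 or more markers and at least 2 times as many as of any other lineage, kept the highest class in 17 of 20 pairs of member and library. No paired analysis was possible because each genotype has 1 library. Prdm1, Irf4 and Bcl6 each rest on under 50 UMIs over both libraries in B-like cells.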
